A study of Homo sapiens with 4 samples.

Results

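A set of 10 genes of the fast skeletal muscle contractile and calcium release machinery was followed in day 14 human cardiomyocyte cultures: STAC3, RYR1, TNNC2, TNNI2, TNNT3, ACTN3, MYH3, MYH8, MYLPF and MYL1. These are 10 of the 23615 gene symbols in the deposited expression table. They had been selected by name, with measured values of these libraries in view, as fast skeletal muscle genes in cultures from cardiac progenitor cells (CPCs), so their difference between the groups is described here and was not tested. That description held for 4 of the 10 genes. STAC3, TNNC2, ACTN3 and RYR1 were 2.78- to 10.07-fold higher in cardiomyocytes from CPCs than in cardiomyocytes from respecified endothelium (ECsXAV), TNNT3 lay in the other direction, and the remaining 5 were at or below about 2 FPKM in every library.

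All 4 libraries were poly-A RNA from unsorted day 14 cultures of RUES2, a human embryonic stem cell line, differentiated as a monolayer under the A100/B5 condition, in which activin A is given at 100 ng/ml and BMP4 at 5 ng/ml. The CPC group (2 libraries) was taken along the cardiac route, for which the study's general scheme draws 1 µM XAV-939 on day 3, although the labels of these 2 libraries do not mention it. The ECsXAV group (2 libraries) is labelled as coming from anterior hemogenic endothelium, was cultured with VEGF from day 2 and then received 2 µM XAV-939 from day 5. By the paper's general protocol, the endothelial medium between day 2 and day 5 also held bFGF and further BMP4. Its base was Stempro34, whereas the cardiac route used RPMI with B27 supplement. The dose of BMP4 given above is thus that of the induction step. XAV-939 (XAV) is a tankyrase inhibitor that lowers Wnt/β-catenin signaling. Whether the CPC libraries had received it is not given by the labels. One cell line was used. The prefix of the sample names is not the same for the 2 groups, and what it stands for is not given. If it marks separate experiments, experiment and group cannot be told apart. The question behind the comparison is how alike cardiomyocytes reached through the 2 routes are.

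Skeletal muscle and heart build the same sarcomere from paralogous genes. Fast skeletal fibres use their own troponin C, I and T, their own myosin heavy and light chains and α-actinin-3, whereas cardiac muscle uses the slow or cardiac versions. At the skeletal triad, where a T-tubule meets the sarcoplasmic reticulum, a voltage-gated calcium channel held by STAC3 opens the release channel RYR1 by direct contact, whereas cardiac RYR2 is opened by incoming calcium. Embryonic and perinatal myosins are made early in skeletal muscle formation, and some skeletal isoforms are also known to be expressed at low levels in immature heart muscle.

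Sequence of the regulatory start regions was read for the genes that RefSeq's promoter table (GRCh38.p14) holds, as windows of 300 bases from 250 before to 50 after a transcription start. It matched 4 of the 10 genes with 6 windows, those of RYR1, MYLPF, MYH8 and MYL1. STAC3, TNNC2, TNNI2, TNNT3, ACTN3 and MYH3 had no entry. These 3 windows are shown because they belong to a gene that was higher in the CPC libraries (RYR1, chr19:38433441-38433740, plus strand), a fast light chain at a low level (MYLPF, the second of its starts, chr16:30372044-30372343, plus strand) and a heavy chain read as a single fragment (MYH8, chr17:10421901-10422200, minus strand). Capitals mark matches, on either strand, to CANNTG (the E-box that myogenic regulators bind), CATTCC (the core bound by TEAD factors), TATAAA and the MEF2 site.
RYR1: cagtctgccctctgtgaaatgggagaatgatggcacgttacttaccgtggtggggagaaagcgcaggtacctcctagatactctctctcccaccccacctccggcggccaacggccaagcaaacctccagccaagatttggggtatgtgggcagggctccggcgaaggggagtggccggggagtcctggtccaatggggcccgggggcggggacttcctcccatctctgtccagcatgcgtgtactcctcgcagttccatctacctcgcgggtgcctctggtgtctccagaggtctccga
MYLPF: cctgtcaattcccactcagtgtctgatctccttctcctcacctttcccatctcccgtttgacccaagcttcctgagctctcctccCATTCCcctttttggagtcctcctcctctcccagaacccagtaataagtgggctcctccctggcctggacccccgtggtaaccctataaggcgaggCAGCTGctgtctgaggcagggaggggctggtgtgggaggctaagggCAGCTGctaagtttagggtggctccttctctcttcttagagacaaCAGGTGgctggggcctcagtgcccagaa
MYH8: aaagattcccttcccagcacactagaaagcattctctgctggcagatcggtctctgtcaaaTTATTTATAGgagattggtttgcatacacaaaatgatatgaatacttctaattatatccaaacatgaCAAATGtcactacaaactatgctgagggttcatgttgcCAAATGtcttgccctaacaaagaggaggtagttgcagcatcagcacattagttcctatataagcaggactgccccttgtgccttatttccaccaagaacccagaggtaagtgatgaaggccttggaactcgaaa

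None of the motifs was found in the RYR1 window. The MYLPF window held CAGCTG at -69 and -23 and CAGGTG at 23, counted from the start, and CATTCC at -165. The MYH8 window had CANNTG at -122 and -84 and a MEF2 site at -189 that overlaps the TATAAA match at -186. These are matches of letters and not measured binding. Such motifs are common, since CANNTG was present in 68.7% of the 35116 windows in the table, CAGGTG in 20.6%, CAGCTG in 17.9%, CATTCC in 14.0%, TATAAA in 11.5% and the MEF2 site in 2.99%.

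Expression was deposited as FPKM, the fragments of a gene divided by its length and by the mapped fragments of the library, so levels can be compared between genes. Steps of single fragments among weakly expressed genes gave depths of about 10.2 to 20.5 M mapped fragments per library, with ECsXAV replicate 2 the shallowest at 50.1% of ECsXAV replicate 1. Differences are given on the log2(FPKM + 1) scale as CPC minus ECsXAV, and the added 1 understates the change of weakly expressed genes. The test across genes was limma on 12398 genes whose mean was 1 FPKM or more, and a gene passed at a Benjamini-Hochberg adjusted p under 0.05 with a fold change over 2. Of the tested genes 2.15% passed, made up of 0.71% that were higher in CPC and 1.44% that were higher in ECsXAV. In bulk RNA, fewer cells of a type and less RNA per cell cannot be told apart.

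The cultures carried the transcripts of cardiomyocytes in all 4 libraries. The 8 cardiomyocyte markers, among them TNNT2, MYL7 and NKX2-5, summed to between 12270 and 13190 FPKM in every library. Most of that sum was MYL7 (8786 and 8535 FPKM in ECsXAV, 6701 and 7142 FPKM in CPC). All 8 were tested, and 1 passed the criterion in each direction. MYH6 was higher in CPC. MYBPC3 was higher in ECsXAV (401 and 381 against 198 and 181 FPKM, log2 difference -1.04, adjusted p = 0.0327 by limma). Of 12 skeletal muscle lineage markers, MYF5, MYF6, PAX7 and TMEM8C (myomaker) were listed at 0 in all libraries, and the list without CKM, a creatine kinase that heart also expresses, summed to 1.45 and 1.17 FPKM in ECsXAV and 1.38 and 1.33 FPKM in CPC. Some marker lists of other cells moved with the groups. Stromal markers summed to 116 and 151 FPKM in ECsXAV against 65.0 and 54.5 FPKM in CPC, with 3 of the 5 tested past the criterion, and endoderm markers to 36.5 and 30.6 against 16.5 and 18.3 FPKM, with 2 of the 3 tested past it. Neural markers summed to 3.95 and 3.74 against 1.10 and 0.963 FPKM, which was mostly TUBB3 (3.69 and 3.39 against 0.498 and 0.650 FPKM), while SOX2 and PAX6 were at most 0.305 FPKM and not lower in CPC. Smooth muscle markers summed to 153 and 151 against 97.8 and 105 FPKM with none of 4 tested past the criterion. CNN1 and ACTG2 were lower in both CPC libraries, and MYOCD, SMTN and DES overlapped. MYH11 was higher in both CPC libraries (0.0844 and 0.154 against 0.351 and 0.433 FPKM). Endothelial markers summed to 10.04 to 12.43 FPKM, mostly KDR (9.80 and 7.06 FPKM in ECsXAV, 10.85 and 8.69 FPKM in CPC). CDH5 was at 1.19 and 1.49 FPKM in ECsXAV and 0.875 and 0.649 FPKM in CPC. TEK was also lower in both CPC libraries, while KDR, PECAM1 and TIE1 overlapped between the groups. VWF was near 0 throughout (0.00524 and 0.0209 FPKM in ECsXAV, listed at 0 in CPC), too low to compare. Undifferentiated cell markers summed to 1.85 to 2.69 FPKM, mostly LIN28A (1.65 and 2.22 against 2.39 and 1.66 FPKM), and NANOG was listed at 0 throughout. The part of these other cells in the values of the 10 genes was not tested.

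**Figure D1:**
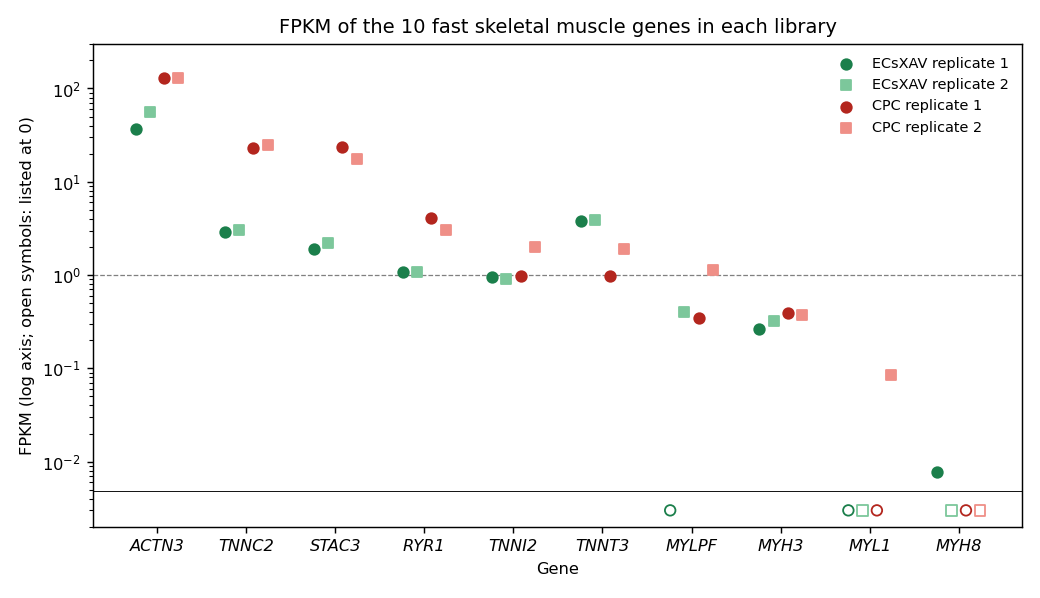
FPKM of the 10 fast skeletal muscle genes (log axis) in each library, with ECsXAV in green, CPC in red, replicate 1 as circles and replicate 2 as squares; open symbols under the line are listed at 0, and the dashed line marks 1 FPKM. ACTN3, TNNC2, STAC3 and RYR1 are higher in both CPC libraries, TNNT3 is lower in both, and MYLPF, MYH3, MYL1 and MYH8 have a mean under 1 FPKM.

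Across the set, 6 genes had a mean of at least 1 FPKM (STAC3, TNNC2, TNNI2, TNNT3, ACTN3 and RYR1) and 4 lay under it. Because a gene can pass that limit through the group in which it is high, the 6 are not a fair sample of the 10. Both CPC libraries were above both ECsXAV libraries for 6 of the 10 genes, an arrangement that 21.9% of the 18772 genes not listed at 0 throughout show, and both were below for 1 gene, an arrangement that 24.6% show. The groups overlapped for the other 3. In all, 4 of the 10 passed the criterion, beside 2.15% of all tested genes. That count follows from how the 10 were selected. The differences ran from -1.002 to 2.815 with a median of 0.43, beside a median of -0.0045 over all tested genes. The figure of values by library shows how unlike each other the members were, with ACTN3 above 100 FPKM in CPC and MYH8 and MYL1 at 1 or 2 fragments.

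STAC3, the adaptor that the skeletal calcium channel needs for its place and function at the triad, had the largest difference of the set with all 4 libraries. Without CPC replicate 1 it was 2.62 and that of TNNC2 was 2.72 on the log2 scale, so the order of these 2 rests on 1 library. In GRCh37 (hg19) it spans 57637236 to 57644971 on the minus strand of chromosome 12. Its level was 1.91 and 2.19 FPKM in the ECsXAV libraries and 23.6 and 17.7 FPKM in the CPC libraries. Both CPC libraries were far above both ECsXAV libraries, and the gap between the groups was larger than the gap between the CPC replicates. The means were 2.05 ± 0.196 and 20.6 ± 4.14 FPKM (SD, n = 2 each), a 10.07-fold difference, or 2.82 on the log2(FPKM + 1) scale. About 64 and 37 fragments stood behind the ECsXAV values and about 700 and 499 behind the CPC values, taking the longest annotated transcript as the gene length. A second annotated locus overlaps STAC3 on the same strand, and their reads cannot be told apart in these tables.

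RYR1, the calcium release channel of the skeletal sarcoplasmic reticulum, was the lower of the triad pair. The gene spans chromosome 19 from 38924331 to 39085913 (plus strand). It was at 1.08 and 1.07 FPKM in ECsXAV and at 4.05 and 3.04 FPKM in CPC. The groups did not overlap, and the fold between their means was 3.30, or 1.12 on the log2(FPKM + 1) scale. With its long transcript these low levels still rested on about 341 and 169 fragments in ECsXAV and 1126 and 803 in CPC. MAP4K1 overlaps RYR1 on the other strand and was at 0.343 to 0.618 FPKM in the 4 libraries, and whether the FPKM step used strand is not stated, although the study describes strand-specific counting for its separate count table.

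Nearly all RYR1 signal was assigned to the transcript NM_001042723, which lacks one short in-frame exon. Its share of RYR1 was 97.1% and 94.0% in ECsXAV and 99.1% and 99.8% in CPC. The full-length NM_000540 stood at 0.0314 and 0.0647 FPKM in ECsXAV and 0.0354 and 0.00759 FPKM in CPC. The tables hold no transcript models, and the link to GENCODE rests on what is generally known of these RefSeq transcripts. The long and the short complete GENCODE models differ in their coding exons only by coding exon 70 of 106, which is 15 bases long (chr19:39014555-39014569, GRCh37, plus strand), so the assignment rests on the fragments that cross it. The exon is printed in capitals with 20 intron bases on each side because it is the only coding sequence that tells the models apart.
RYR1 exon 70: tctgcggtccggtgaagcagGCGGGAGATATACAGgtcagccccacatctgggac

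TNNC2 is the calcium sensor of the fast troponin complex (chromosome 20 from 44451853 to 44462384, minus strand). Its level was 2.92 and 3.01 FPKM in ECsXAV and 22.9 and 25.0 FPKM in CPC. The replicates of each group lay close together and the groups were well apart. Means of 2.96 ± 0.0614 and 23.95 ± 1.51 FPKM (SD, n = 2 each) differed 8.08-fold, or by 2.65 on the log2(FPKM + 1) scale. About 47 and 24 fragments in ECsXAV and 322 and 334 in CPC stood behind these values.

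The 2 other fast troponins did not follow TNNC2. TNNI2, the inhibitory subunit (chromosome 11 from 1860211 to 1862910, plus strand), was at 0.958 and 0.904 FPKM in ECsXAV and 0.971 and 2.01 FPKM in CPC. CPC replicate 1 was level with the ECsXAV libraries and replicate 2 was about 1 FPKM higher, on 13 and 26 fragments, and the difference of 0.34 on the log2(FPKM + 1) scale is of the size of the spread between replicates (0.31). TNNT3, the tropomyosin-binding subunit (chromosome 11 from 1940933 to 1959936, plus strand), was at 3.76 and 3.89 FPKM in ECsXAV and 0.988 and 1.92 FPKM in CPC. Both CPC libraries lay below both ECsXAV libraries, and the means differed 2.63-fold with ECsXAV higher, or by -1.002 on the log2(FPKM + 1) scale. Of the fast troponin subunits, TNNC2 was thus higher in CPC, TNNT3 was lower without passing the criterion, and TNNI2 had no clear direction.

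**Figure D2:**
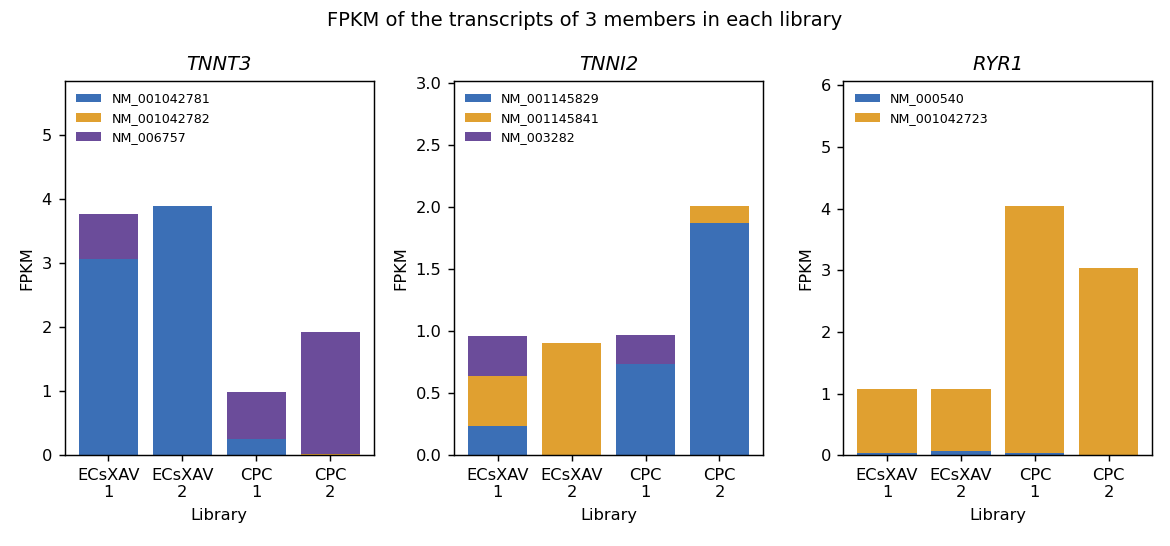
FPKM of the annotated transcripts of TNNT3, TNNI2 and RYR1 in each library, stacked to the gene's level. TNNT3 is mostly NM_001042781 in ECsXAV and mostly NM_006757 in CPC, and RYR1 is almost entirely NM_001042723 in all 4 libraries.

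The transcripts of TNNT3 also differed in kind. NM_001042781 was at 3.07 and 3.89 FPKM in ECsXAV and at 0.252 and 0 FPKM in CPC, that is 81.5% and 99.97% of TNNT3 in ECsXAV and 25.5% in CPC replicate 1. In contrast, NM_006757 was at 0.696 and 0 FPKM in ECsXAV and 0.736 and 1.91 FPKM in CPC, 74.5% and 99.1% of the gene in the CPC libraries. The CPC values rest on about 22 and 41 fragments for the whole gene, so the split between its transcripts is coarse. For TNNI2, NM_001145829 had 0.232 and 0 FPKM in ECsXAV and 0.737 and 1.87 FPKM in CPC, and NM_001145841 had 0.403 and 0.903 FPKM in ECsXAV and 0 and 0.142 FPKM in CPC. ECsXAV replicate 2 had only about 7 fragments for TNNI2. ACTN3 had a second transcript, NM_001258371, at 0.374 FPKM (0.289% of the gene) in CPC replicate 2. MYL1 also has a second listed transcript, and the other 5 genes have 1 each.

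ACTN3, the α-actinin of the Z-disc of fast fibres, was the most abundant of the 10 genes (chromosome 11 from 66313866 to 66330805, plus strand). Its level was 37.2 and 55.9 FPKM in ECsXAV and 129.6 and 129.3 FPKM in CPC. The ECsXAV replicates differed from each other far more than the CPC replicates did, and the groups stayed apart. Means of 46.55 ± 13.3 and 129.4 ± 0.231 FPKM (SD, n = 2 each) gave a 2.78-fold difference, or 1.48 on the log2(FPKM + 1) scale. CTSF ends 130 bases from ACTN3 on the opposite strand and was at 7.26 and 6.72 FPKM in ECsXAV and 8.27 and 8.03 FPKM in CPC, a small part of the ACTN3 level.

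The 4 myosin genes had the lowest mean levels of the set. MYH3, the embryonic heavy chain (chromosome 17 from 10531843 to 10560626, minus strand), was at 0.263 and 0.324 FPKM in ECsXAV and 0.392 and 0.369 FPKM in CPC. Both CPC libraries were slightly above both ECsXAV libraries. These values fit 34, 21, 44 and 38 whole fragments, and the fold of 1.3 between the means was a difference of 0.09 on the log2(FPKM + 1) scale. MYH8, the perinatal heavy chain (chromosome 17 from 10293639 to 10325267, minus strand), was read as 1 fragment in ECsXAV replicate 1 (0.00774 FPKM) and was listed at 0 in the other libraries. Heavy chain genes share long stretches of sequence, and how reads with several alignments were counted is not given for these values.

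The fast light chains rested on even fewer fragments than MYH3. MYLPF, the fast regulatory light chain (chromosome 16 from 30382255 to 30389312, plus strand), was listed at 0 in ECsXAV replicate 1 and at 0.397 FPKM in replicate 2, and at 0.344 and 1.12 FPKM in CPC. The smallest whole numbers that fit those levels were 0, 2, 3 and 9 fragments. With the longest annotated transcript as the length they were about 0, 3, 4 and 13. The lower CPC library was below the higher ECsXAV library. MYL1, the fast essential light chain (chromosome 2 from 211154874 to 211179898, minus strand), was listed at 0 in 3 libraries. It was at 0.0857 FPKM in CPC replicate 2, which is 1 fragment by the first way and about 2 by the second. A difference between the groups in MYH8, MYLPF or MYL1 was not detectable at this depth. A listed 0 can also be a failed estimate, since LANCL1, the gene next to MYL1, was listed at 0 in replicate 1 of both groups and at 26.4 and 18.5 FPKM in replicate 2.

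Each fast gene was then set against its slow or cardiac relatives, as a share of the summed FPKM of the family. This share depends on the same values that chose the genes and is given as a description. STAC3 made up 19.1% and 20.4% of the STAC family in ECsXAV and 72.7% and 60.04% in CPC. In the CPC libraries it passed STAC, a neuronal relative that was at 7.76 and 7.80 FPKM in ECsXAV and 8.57 and 11.4 FPKM in CPC, while STAC2 stayed under 1 FPKM in all 4. The STAC family was the only one of the 9 in which the gene of the set was the largest part in any library.

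**Figure D3:**
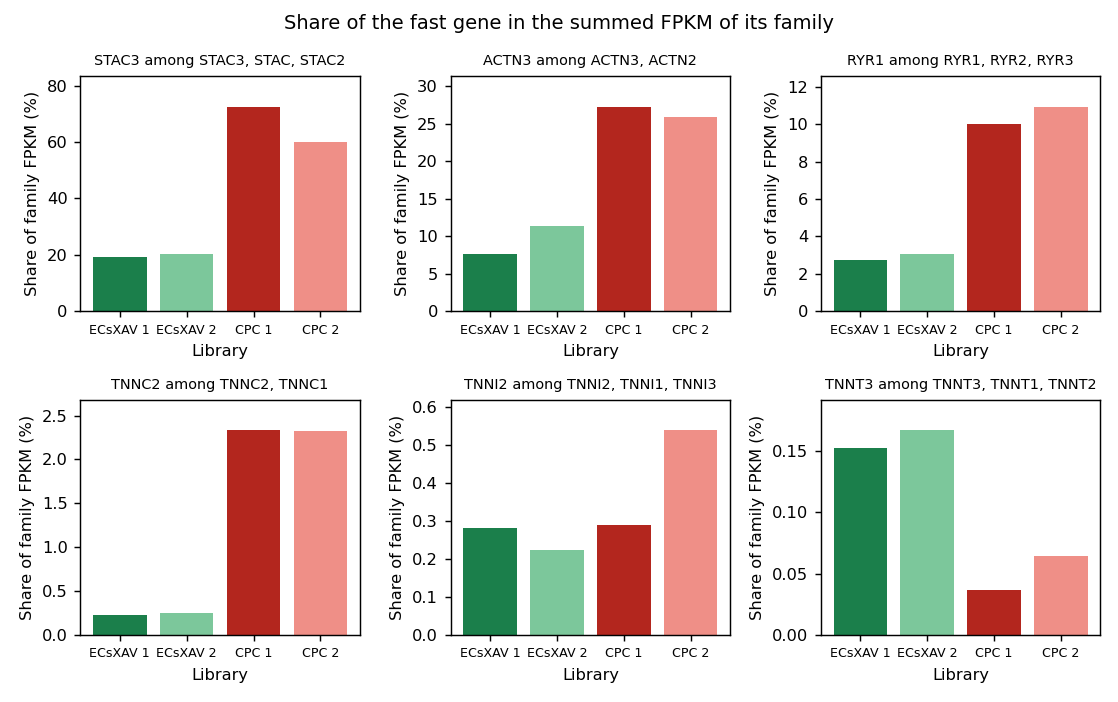
Share (%) of the gene of the set in the summed FPKM of its family, for 6 families and each of the 4 libraries. ECsXAV is in green and CPC in red, and each panel has its own axis from 0. The share is higher in both CPC libraries for STAC3, ACTN3, RYR1 and TNNC2, and lower for TNNT3.

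ACTN3 made up 7.67% and 11.3% of the summed ACTN2 and ACTN3 level in ECsXAV and 27.3% and 25.9% in CPC. The sum itself was 484 and 495 FPKM in ECsXAV and 475 and 499 FPKM in CPC, so it overlapped between the groups while its makeup did not. ACTN2, the α-actinin of heart and of all skeletal fibres, was at 447 and 439 FPKM in ECsXAV and 345 and 370 FPKM in CPC (log2 difference -0.31, adjusted p = 0.295 by limma). RYR1 was 2.74% and 3.08% of the ryanodine receptors in ECsXAV and 10% and 10.96% in CPC. Cardiac RYR2 was at 38.2 and 33.7 FPKM in ECsXAV and 36.1 and 24.5 FPKM in CPC (log2 difference -0.26, adjusted p = 0.574), and remained the main receptor in every library.

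In the troponins the fast subunits were a minor part beside the slow and cardiac ones. TNNC2 was 0.223% and 0.245% of troponin C in ECsXAV and 2.33% and 2.32% in CPC, beside TNNC1 at 1304 and 1224 FPKM and 958 and 1052 FPKM. TNNI2 was at most 0.539% of troponin I, and TNNT3 at most 0.167% of troponin T. Slow skeletal TNNI1, which the fetal heart also uses, was at 278 and 322 FPKM in ECsXAV and 308 and 332 FPKM in CPC. Cardiac TNNT2 was at 2453 and 2309 FPKM and at 2696 and 2988 FPKM. Neither differed past the criterion, nor did slow skeletal TNNT1 (log2 difference -0.83, adjusted p = 0.143). Cardiac TNNI3 was at 61.0 and 79.04 FPKM in ECsXAV and 27.6 and 38.7 FPKM in CPC (-1.06, adjusted p = 0.0856), and it passed without short RNA genes (adjusted p = 0.0111).

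The fast myosins were a trace of the myosin in these cultures. MYH3 and MYH8 together were 0.0145% to 0.0181% of the summed heavy chains with MYH6 and MYH7, MYLPF was at most 0.0157% of the regulatory light chains with MYL2 and MYL7, and MYL1 was at most 0.00285% of the essential light chains with MYL3 and MYL4. The cardiac heavy chains themselves shifted. MYH6, the α heavy chain typical of atria, rose from 855 and 857 FPKM in ECsXAV to 2070 and 1901 FPKM in CPC (log2 difference 1.21, SE 0.15, adjusted p = 0.0358 by limma). MYH7, the β heavy chain of ventricle and slow fibres, fell from 1011 and 931 FPKM to 147 and 194 FPKM (-2.52, SE 0.18, adjusted p = 0.0115), and MYL2, the ventricular and slow regulatory light chain, from 53.9 and 45.1 FPKM to 7.04 and 9.92 FPKM (-2.42, SE 0.19, adjusted p = 0.0139). Leaving out any 1 library ended the call for MYH6 (adjusted p 0.107 to 0.636), and MYH7 and MYL2 stayed under it in 1 of the 4 such fits each (0.0450 to 0.0851 and 0.0482 to 0.102).

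Among the 21 slow and cardiac counterparts as a list, 19 were tested, 1 was higher in CPC, 2 were higher in ECsXAV and 16 did not pass. Over all tested genes 0.71% were higher in CPC and 1.44% in ECsXAV by the same criterion. Their median difference was -0.31, beside -0.0045 over all tested genes, with a range of -2.52 to 1.21. MYL7, MYL3 and MYL4, light chains of atria and of ventricle, were among those that did not pass. MYL7 was at 8786 and 8535 FPKM in ECsXAV and 6701 and 7142 FPKM in CPC, the highest level among these genes.

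**Figure D4:**
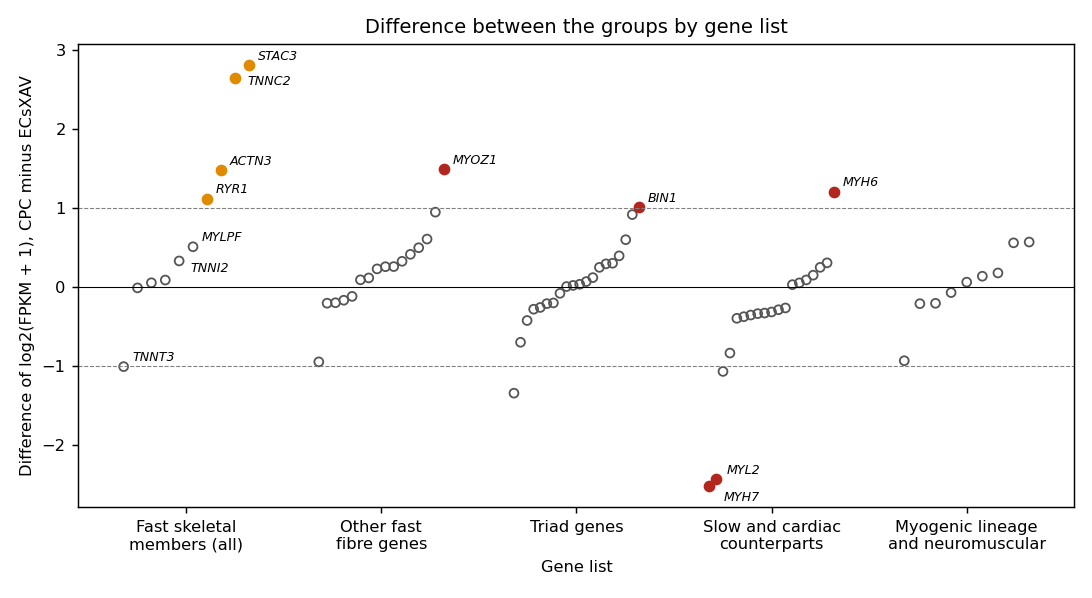
Difference of log2(FPKM + 1), CPC minus ECsXAV, for the 10 fast skeletal genes (left, all shown, 4 past the criterion in orange) and for the tested genes of 4 further lists (filled red where past the criterion); each point is 1 gene, and dashed lines mark 1 and -1. MYOZ1 and BIN1 are the single genes past the criterion in the other fast fibre and triad lists, and none is in the myogenic list.

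Other genes of fast fibres, a list that was likewise drawn up with results of these data known, were set beside the 10. Of 30 such genes, 16 had a mean of at least 1 FPKM, 14 lay under it and 2 of these, MYH1 and AMPD1, were listed at 0 in all libraries. One of the 16 passed the criterion, higher in CPC, beside 0.71% of all tested genes in that direction, and 15 did not, with a median difference of 0.25 and a range of -0.94 to 1.49. MYOZ1, the calcineurin-binding Z-disc protein calsarcin-2 of fast fibres, rose from 5.72 and 5.61 FPKM to 17.8 FPKM in both CPC libraries (log2 difference 1.49, SE 0.10, adjusted p = 0.0110 by limma). The replicates nearly coincided, and yet without any 1 library the adjusted p was 0.0793 to 0.102 while the difference stayed at 1.48 to 1.51. CASQ1, the calsequestrin of skeletal sarcoplasmic reticulum, was at 6.43 and 6.62 FPKM in ECsXAV and 12.1 and 15.2 FPKM in CPC, with an adjusted p of 0.0475 and a log2 difference of 0.95 that is under the fold required.

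Fast heavy chains and the fast calcium pump were low. The fast heavy chains MYH2 and MYH4 were at most 0.109 FPKM in any library, and MYH13 of extraocular muscle was at 0.461 and 0.498 FPKM in ECsXAV and 0.306 and 0.293 FPKM in CPC. ATP2A1, the fast calcium pump SERCA1, was at 1.26 and 1.37 FPKM in ECsXAV and 1.03 and 1.11 FPKM in CPC (log2 difference -0.16, 95% interval -0.54 to 0.22, adjusted p = 0.624). Among genes of the list that other striated fibres also use, TCAP, the titin cap protein of the Z-disc, was at 124 and 156 FPKM in ECsXAV and 74.0 and 69.7 FPKM in CPC (-0.94, adjusted p = 0.0535). Skeletal actin ACTA1 was at 22.8 and 22.4 FPKM in ECsXAV and 19.7 and 29.6 FPKM in CPC, and there the groups overlapped.

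The triad and calcium release genes around STAC3 and RYR1 gave a similar count. Of 24 genes, 23 were in the table and 20 were tested. Of these 1 passed, higher in CPC, beside 0.71% of all tested genes in that direction. The median difference was 0.03 with a range of -1.34 to 1.02. BIN1, the membrane-bending amphiphysin of T-tubules, rose from 7.37 and 7.17 FPKM to 15.9 and 15.6 FPKM (log2 difference 1.02, SE 0.10, adjusted p = 0.0229 by limma), and lay at an adjusted p of 0.103 to 0.176 without any 1 library. CACNA1S, the skeletal calcium channel that STAC3 serves, was at 0.371 and 0.272 FPKM in ECsXAV and 0.148 and 0.199 FPKM in CPC, under the limit for testing. Its cardiac relative CACNA1C was at 13.4 and 10.97 FPKM in ECsXAV and 7.66 and 6.62 FPKM in CPC (-0.69, adjusted p = 0.0929). CASQ2, the cardiac calsequestrin, was at 3.38 and 2.09 FPKM in ECsXAV and 0.437 and 0.476 FPKM in CPC (-1.34, adjusted p = 0.0542). It passed with a pseudocount of 0.1 (-2.31, adjusted p = 0.0466 by limma). The study, with its own test on counts, lists CASQ2 among the cardiac genes that differed significantly between these 2 populations. STAC3 itself was at 17.7 FPKM or more in the CPC libraries, where its skeletal channel partner was under 0.2 FPKM.

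The regulators that start the skeletal muscle programme were absent or near 0. MYF5, MYF6 and PAX7 were listed at 0 in all libraries, and MYOD1 was listed at 0 in 3 and at 0.0353 FPKM in CPC replicate 2. MYOG was at 0.238 and 0.203 FPKM in ECsXAV and 0.430 and 0.128 FPKM in CPC, and PAX3 at 0.206 and 0.522 FPKM and at 0.486 and 0.437 FPKM. Both overlapped between the groups. Of the 33 myogenic lineage and neuromuscular genes, 24 had a mean under 1 FPKM and 7 of these were listed at 0 throughout. None of the 9 tested passed the criterion by limma, and the median difference was 0.07. An unadjusted p under 0.05 was found for 3 of the 9, beside 2262 of all 12398 tested genes. DOK7, an activator of the receptor MUSK at the neuromuscular junction, was at 5.94 and 7.18 FPKM in ECsXAV and 2.88 and 3.05 FPKM in CPC, with an adjusted p of 0.0454 and a log2 difference of -0.93, under the fold required.

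The genes that flank the 10 on the chromosome were also read. Of 19 nearest protein-coding genes, 11 were tested and none passed the criterion. The largest of these differences was that of UBE2C, a ubiquitin-conjugating enzyme of mitosis beside TNNC2, at 17.7 and 13.2 FPKM in ECsXAV and 3.91 and 6.85 FPKM in CPC (log2 difference -1.39, adjusted p = 0.0802). ZDHHC24, 160 bases from ACTN3, was at 1.66 and 2.83 FPKM in ECsXAV and 1.21 and 1.57 FPKM in CPC, and SNX21, 54 bases from TNNC2, was at 9.59 and 9.52 FPKM in ECsXAV and 13.2 and 10.3 FPKM in CPC (log2 difference 0.26, adjusted p = 0.444). R3HDM2 beside STAC3 was at 18.6 to 20.4 FPKM in all 4 libraries.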

How the data were processed

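Poly-A RNA-seq of 4 unsorted day 14 cultures was used, 2 ECsXAV and 2 CPC, grouped by the sample labels. The FPKM values were computed and deposited by the authors per gene and per transcript, with Cufflinks 2.1.1 and UCSC annotation on hg19. The submitters' processing notes also name TopHat 1.3.3. Strand-specific counting is described for a separate count table, not used here. For the FPKM values, scaling between libraries and strand use are not given in the sources used here. The study states 2 biological replicates, and p-values measure the spread between these libraries.

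The 10 genes and all gene lists were chosen with earlier results of these data known. A symbol listed at several loci was represented by its highest entry. Differences were fitted with limma 3.58.1 (R 4.3.3) to log2(FPKM + 1), using an intensity trend and adjusting by Benjamini-Hochberg over 12398 genes averaging 1 FPKM or more. Relative depth came from whole-fragment steps of low FPKM. Positions came from GENCODE release 44 on GRCh37, where MYLPF is named MYL11, and promoter windows from RefSeq (GRCh38.p14). Named genes are the 10, their family counterparts, list genes past the criterion, skeletal muscle regulators and flanking genes past it. CASQ1, CASQ2, CACNA1S, CACNA1C, TCAP, ACTA1, ATP2A1, TUBB3, SOX2, PAX6, UBE2C, MYH1, MYH2, MYH4, MYH13, AMPD1, DOK7 and the flanking genes given by name were picked once their values had been seen. So were the endothelial and undifferentiated cell markers KDR, CDH5, TEK, VWF, PECAM1, TIE1, LIN28A and NANOG. The same holds for the cardiac marker MYBPC3 and for the stromal and smooth muscle markers given by name. The alternatives were a pseudocount of 0.1, other filters, quantile or median-of-ratios scaling, a replicate block, summed loci, the transcript table, leaving out short RNA genes and leaving out each library. Figures were drawn with matplotlib 3.10.9.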

Additional observations from a re-analysis of the deposited data

How the results depend on the processing

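Of the 10 genes, none changed sign under the alternatives, except that MYH8 and MYL1 went to 0 without the only library that has a fragment. The largest and smallest differences were 2.62 to 3.26 for STAC3, 2.59 to 2.97 for TNNC2, 1.20 to 1.77 for ACTN3, 0.96 to 1.62 for RYR1 and -1.40 to -0.72 for TNNT3 (log2). Their median of 0.43 became 1.02 with a pseudocount of 0.1, and 0.15 to 0.74 when 1 library was left out, the lowest without CPC replicate 2 and the highest without CPC replicate 1. Median-of-ratios scaling and summed loci cannot change the family shares, since a factor per library cancels and each family gene has a single locus. The transcript table gave the same shares, and the gene values of the 10 equal the sums of their transcripts. These settings are therefore no check on the shares. Quantile normalization can move a share within a library, and the shares were not computed with it. Of the alternatives tried on the shares, only leaving out a library changed them. The difference in share then ran from 40.3 to 52.9 points for STAC3, 15.3 to 18.9 for ACTN3, 7.09 to 8.05 for RYR1, 2.083 to 2.104 for TNNC2 and -0.123 to -0.0957 for TNNT3. For TNNI2 it was 0.0351 without CPC replicate 2 and 0.286 without CPC replicate 1, beside 0.161 with all libraries, and for MYLPF 0.0028 and 0.0134, beside 0.0081. For MYL1 it was 0 without CPC replicate 2, its only library above 0, and for MYH3 with MYH8 it changed sign without ECsXAV replicate 1 (-0.0005, beside 0.0013).

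Counts past the criterion moved with the setting. Over all genes, 266 passed (88 higher in CPC and 178 in ECsXAV), 20 without a filter (12 and 8), 152 with a mean FPKM of at least 5, and 50 to 118 without 1 library, where the lone library of a group is assumed to vary like the others. The count was 311 with a pseudocount of 0.1 and 339 without short RNA genes. Without a CPC library the balance of directions turned, with 39 higher in CPC and 11 in ECsXAV without replicate 1, and 56 and 16 without replicate 2. Among the 10, the 4 became 1 without a filter, 1 to 2 without 1 library, and 5 without short RNA genes, where TNNT3 passed as higher in ECsXAV. Of the fast fibre genes, 1 became 2 with a pseudocount of 0.1, 0 without a filter and 0 without any 1 library. Of the triad genes, 1 became 2 with a pseudocount of 0.1 and without short RNA genes, 0 without a filter, and 0 to 1 without 1 library. Of the counterparts, 3 became 0 without a filter and 0 to 1 without 1 library, and of the myogenic genes 0 became 1 with a pseudocount of 0.1. The cause was not tested.

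In the fit with a replicate block, 176 genes passed, 2 of the 10 did (STAC3 and TNNC2) and MYH6 had an adjusted p of 0.0582, while TNNI3 passed (0.0388), and MYOZ1 (0.0295), BIN1 (0.0431), MYH7 (0.0339) and MYL2 (0.0388) stayed under the threshold. The block without short RNA genes, an alternative chosen after seeing the data, gave 346 genes, 5 of the 10 and 2 triad genes. By their labels same-numbered libraries share only a number, and whether they shared anything else, such as a batch, is not given. The replicate differences of the groups had a rank correlation of 0.356 across genes (Pearson's r 0.035). Depth limits the 4 myosin genes, whose values rest on 0 to 44 fragments.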
